A study of Mus musculus with 8 samples.

Results

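A set of 6 mouse genes that read or reshape the membrane lipid PI(3,4)P2 were examined in the hippocampus of mice overexpressing miR-708-5p. They are the adaptor genes Plekha1 and Plekha2, the 4-phosphatase genes Inpp4a and Inpp4b and the 5-phosphatase genes Inppl1 and Inpp5d, and they make up 6 of the 40659 genes in the count table. Plekha2 was selected on its difference between the groups, as one of the genes marked by name on the study's volcano plot of these same mice, and the other 5 were added for their part in the handling of the lipid. The contrast between the groups therefore chose the leading gene, and its group difference is given as a description without a test.

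PI(3,4)P2 is a phosphoinositide, a membrane lipid whose inositol head carries phosphates that proteins recognise. Class I PI3-kinases make PI(3,4,5)P3 downstream of growth factor receptors, the 5-phosphatases SHIP1 and SHIP2 turn it into PI(3,4)P2, class II PI3-kinases can make PI(3,4)P2 directly, and the INPP4 4-phosphatases turn it into PI3P. Proteins with a suitable PH domain, such as AKT and the products of Plekha1 and Plekha2 (TAPP1 and TAPP2), bind the lipid at the membrane. In neurons the lipid is known for its roles in endocytosis and in the outgrowth of processes.

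PolyA-RNA of whole hippocampi was sequenced in 8 male C57BL/6JRj mice, 4 per group. All 8 mice received a rAAV injected into the dorsal and ventral hippocampus at 7 to 8 weeks of age, and tissue was taken 4 weeks later, with the labels giving an age of 12 to 13 weeks. The virus expressed EGFP with a hairpin in its 3'UTR from the human synapsin promoter, which is active in neurons, and the hairpin was a control in hpCTL and overexpressed miR-708-5p in hp708. The libraries held 22606824 to 28462428 counted reads. Since whole tissue was sequenced, non-neuronal cells contributed RNA although the promoter is neuronal.

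One library is in conflict with another record of the study. The mouse numbered 1602 carries the GEO label of hp708 replicate 1, but the study's qPCR source data enter it under hpCTL. It was kept in hp708, and group differences of the 6 genes are also given without it. Those of single pathway genes and of marker lists are given only with it. The microRNA gene Mir708 had 0 counts in each of the 8 libraries, so the overexpression could not be checked in them.

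The mature microRNA and its matches in these genes are shown first, because the overexpressed microRNA is the only designed difference between the groups. The microRNA sequence is that of RefSeq, with the seed (bases 2 to 8) in capitals. The sites are read on the gene's own strand of GRCm39, 5′ to 3′, with the seed match in capitals. A site was counted as AGCTCCT (7mer-m8), GCTCCTA (7mer-A1) or AGCTCCTA, the 8mer that contains both, on the transcript strand of the longest annotated 3'UTR of each gene.
mmu-miR-708-5p: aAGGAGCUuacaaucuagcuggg
Plekha2 8mer: tcttacgttgtgtgAGCTCCTA
Inpp4a 7mer-A1: tttgaacatggtactGCTCCTA
Inpp4a 7mer-m8: gctaaatgcagtattAGCTCCT
Inppl1 8mer: gaagagttccttacAGCTCCTA

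The Plekha2 window lies at chr8:25529238-25529259 on the minus strand, 3810 bases after the stop codon, and is in 11 of 15 coding transcripts of the gene. The Inppl1 window lies at chr7:101472143-101472164 on the minus strand, 444 bases after the stop codon, and is in 15 of 15 coding transcripts. The Inpp4a windows lie at chr1:37443607-37443628 and chr1:37445662-37445683 on the plus strand, 897 and 2952 bases after the stop codon, and both are in only 2 of 28 coding transcripts. The sites of Plekha2 and Inppl1 are thus part of most or all of their annotated messages, and those of Inpp4a are not. Plekha1, Inpp4b and Inpp5d had none of these letters in 3'UTRs of 4103, 5179 and 1184 bases.

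Of the 6 genes 3 had a site and 2 had an 8mer. Among the 14808 tested genes with an annotated 3'UTR, 26.5% had a site and 3.48% an 8mer. The median log2 fold change of hp708 against hpCTL was 0.0014 over the 3927 genes with a site and -0.0146 over those without. A match of letters is a description of the sequence and was not tested as a binding site.

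Plekha2 (ENSMUSG00000031557) encodes TAPP2 and occupies chr8:25529160-25625461 on the minus strand of GRCm39, the build of all coordinates given here. Its level, as counts scaled to the library size with TMM normalization (CPM), was 39.2, 33.4, 50.9 and 38.3 in hpCTL replicates 1 to 4. In hp708 replicates 1 to 4 it was 32.8, 48.8, 55.4 and 103.6. One hp708 library held the highest level of all 8 and another the lowest, so the groups overlapped, and only the library with 103.6 CPM stood clear of the range of the others.

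The mean was 40.5 ± 7.43 CPM in hpCTL and 60.2 ± 30.5 CPM in hp708 (SD, n = 4 each), a ratio of 1.49. The spread in hp708 was wider than the distance between the means. The fitted log2 fold change, in a model with 3 surrogate variables that absorb unlabelled variation between libraries, was 0.30 (standard error, SE, 0.17). Of all 17252 tested genes, 12.9% had a log2 fold change at least as far from 0, and the median over all of them was -0.0091.

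The size of the Plekha2 difference rested on single libraries and on the covariates. It was 0.057 (SE 0.15) once hp708 replicate 4 was left out, and without the library labelled hp708 replicate 1 it was 0.84 (SE 0.08). Few degrees of freedom remained in these fits, so their standard errors are uncertain. Without surrogate variables the same values were 0.18 (SE 0.19) and 0.78 (SE 0.25). With animal 1602 counted as hpCTL the Plekha2 value was 0.65 (SE 0.13), and without surrogate variables, with all 8 libraries, it was 0.57 (SE 0.30). The surrogate variables of the reported fit came from counts not scaled to library size. With those from TMM-scaled CPM, a setting added after seeing the data, it was 0.545 (SE 0.05). With the mean of the subiculum marker list as a covariate in place of the surrogate variables it was -0.20 (SE 0.28). It was above 0 in the other 12 alternatives and in each of the 16 fits that left out 1 library.

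**Figure D1:**
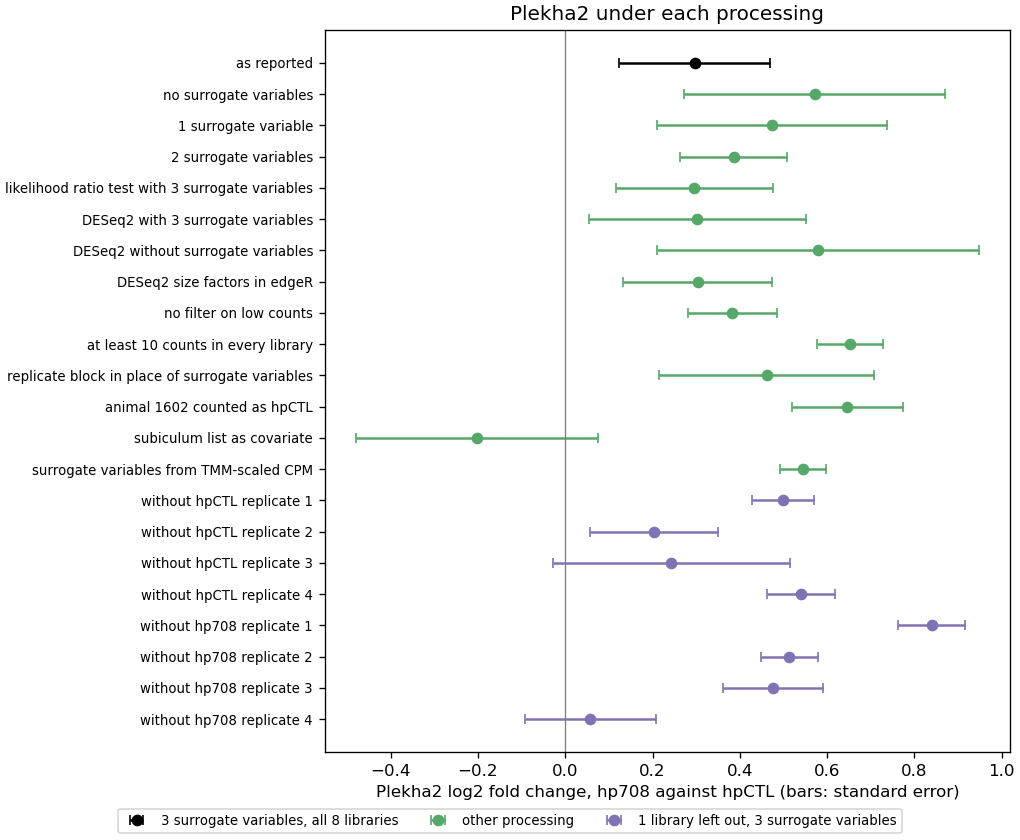
Log2 fold change of Plekha2, hp708 against hpCTL (x axis), under each way of fitting the counts (y axis). Points are estimates and bars are standard errors, in black for the value of 0.30 reported in the text, in green for other processing and in purple for fits with 3 surrogate variables that leave out 1 library. The values run from -0.20 with the subiculum list as a covariate to 0.84 without hp708 replicate 1.

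Reads of Plekha2 could not be separated from those of neighbours on the other strand, because the strand setting of the counting is not given in the sources used here. Of its exon bases 20.6% overlap exons of the long noncoding RNAs 5830408C22Rik and Gm16933. Replicates 1 to 4 held 65, 35, 63 and 33 counts of 5830408C22Rik for hpCTL and 55, 33, 54 and 188 for hp708, against 763 to 2509 counts of Plekha2. The library with the most Plekha2 also had the most 5830408C22Rik. Gm16933 stayed between 0.0826 and 0.533 CPM.

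Plekha1 (ENSMUSG00000040268, chr7:130467417-130516875, plus strand) encodes TAPP1, the close relative of TAPP2 with the same lipid preference. Its level was 96.7, 102.1, 101.4 and 101.4 CPM in hpCTL and 95.8, 113.5, 110.0 and 110.6 CPM in hp708. The hpCTL libraries lay close together, hp708 replicates 2 to 4 lay above all of them, and the library labelled hp708 replicate 1 lay below all of them. The mean was 100.4 ± 2.49 CPM in hpCTL and 107.5 ± 7.95 CPM in hp708 (SD, n = 4 each). The fitted log2 fold change was 0.05 (SE 0.05). It was 0.14 (SE 0.05) without the library labelled hp708 replicate 1 and 0.16 (SE 0.05) with animal 1602 counted as hpCTL.

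The adaptors differed in how much they varied between mice. The ratio of the highest to the lowest library was 1.19 for Plekha1 and 3.16 for Plekha2. Within hpCTL, which holds no group difference, the SD of log2 CPM was 0.04 for Plekha1 and 0.25 for Plekha2. Among tested genes within 0.5 log2 CPM of the same level, these SDs stood at percentile 6.45 of 1877 genes and percentile 92.2 of 2765 genes. Plekha1 was thus among the steadier genes of its level in control mice and Plekha2 among the more variable ones.

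**Figure D2:**
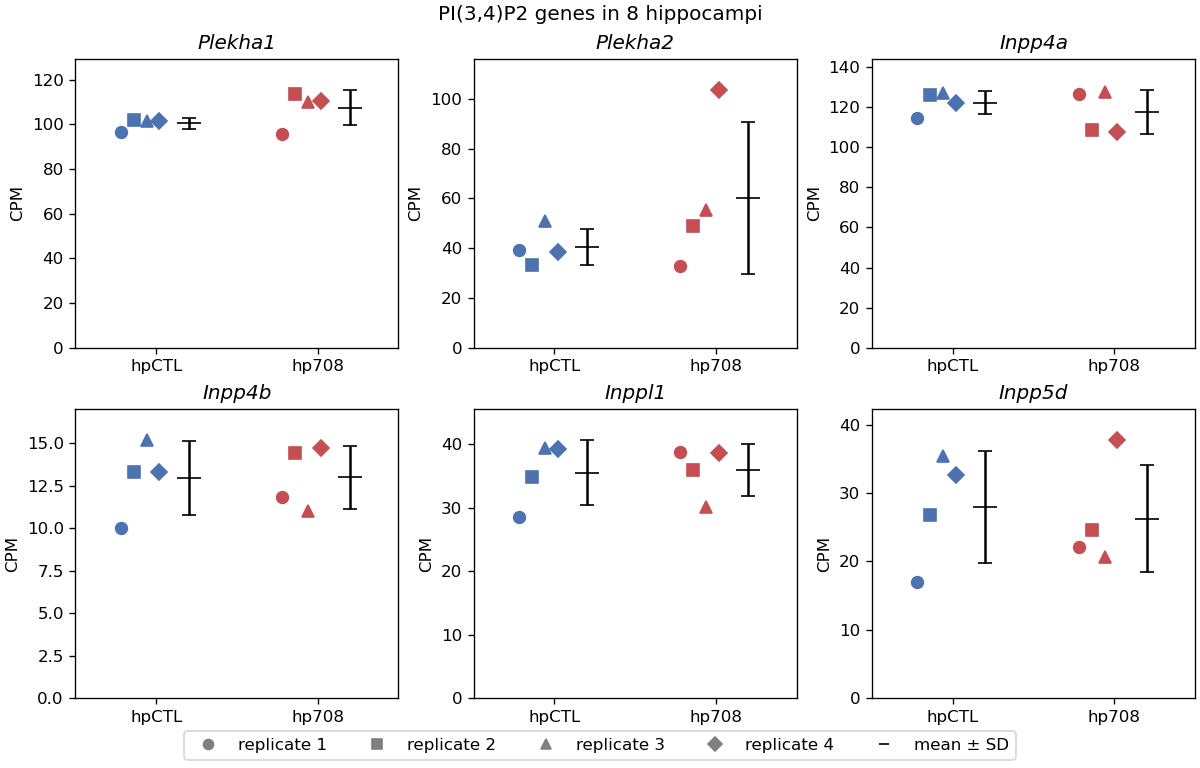
Level of the 6 PI(3,4)P2 genes in each library, in CPM (y axis, from 0), for hpCTL (blue) and hp708 (red). Marker shapes give the replicate number, and the bars beside the points give the mean and SD of 4 libraries. The groups overlap in every panel, and hp708 replicate 4, at 103.6 CPM, stands apart for Plekha2.

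Inpp4a (ENSMUSG00000026113, chr1:37338919-37449820, plus strand) encodes a 4-phosphatase that removes PI(3,4)P2 and is needed for the survival of neurons in mice. Its level was 114.4, 126.0, 126.9 and 121.9 CPM in hpCTL and 126.8, 108.5, 127.5 and 107.4 CPM in hp708. The hp708 libraries fell into a high pair (replicates 1 and 3) and a low pair (replicates 2 and 4), and the low pair lay below all hpCTL libraries. The mean was 122.3 ± 5.70 CPM in hpCTL and 117.5 ± 11.1 CPM in hp708 (SD, n = 4 each). The fitted log2 fold change was -0.03 (SE 0.06), and it was -0.15 (SE 0.06) without the library labelled hp708 replicate 1.

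Inpp4b (ENSMUSG00000037940, chr8:82069185-82854543, plus strand), the second 4-phosphatase gene and one known as a tumour suppressor in epithelium, was the lowest of the 6. Its level was 9.996, 13.3, 15.2 and 13.3 CPM in hpCTL and 11.8, 14.4, 11 and 14.7 CPM in hp708, from 258 to 370 counts per library. The means differed by less than their spread, at 13.0 ± 2.16 and 13.0 ± 1.86 CPM (SD, n = 4 each). The fitted log2 fold change was -0.10 (SE 0.10), and it was 0.02 (SE 0.12) without the library labelled hp708 replicate 1. Its sign thus changed when that library was left out.

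Inppl1 (ENSMUSG00000032737, chr7:101471822-101487594, minus strand) encodes SHIP2, the more widely expressed of the SHIP 5-phosphatases. Its level was 28.5, 34.9, 39.3 and 39.3 CPM in hpCTL and 38.8, 35.9, 30.1 and 38.7 CPM in hp708. The lowest libraries were hpCTL replicate 1 and hp708 replicate 3, with the other 6 between 34.9 and 39.3. The mean was 35.5 ± 5.11 CPM in hpCTL and 35.9 ± 4.10 CPM in hp708 (SD, n = 4 each), and the fitted log2 fold change was -0.02 (SE 0.08). Without the library labelled hp708 replicate 1 it was -0.03 (SE 0.06). Of its exon bases 23.3% overlap genes on the other strand, of which Phox2a had 0 counts and Gm10602 at most 0.853 CPM.

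Inpp5d (ENSMUSG00000026288, chr1:87547989-87648230, plus strand) encodes SHIP1, which is found mainly in blood cells and, in the brain, in microglia. Its level was 17.0, 26.8, 35.5 and 32.7 CPM in hpCTL and 22.1, 24.6, 20.6 and 37.7 CPM in hp708. The lowest library was hpCTL replicate 1 and the highest hp708 replicate 4, a 2.22-fold range. The mean was 28.0 ± 8.19 CPM in hpCTL and 26.2 ± 7.83 CPM in hp708 (SD, n = 4 each), a difference smaller than either SD. The fitted log2 fold change was -0.24 (SE 0.13). Without surrogate variables it was -0.09 (SE 0.25), without the library labelled hp708 replicate 1 it was -0.05 (SE 0.07) and without hp708 replicate 4 it was -0.44 (SE 0.14).

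The library hpCTL replicate 1 held the lowest level of Inpp4b, Inppl1 and Inpp5d among all 8 mice. Within hpCTL the SD of log2 CPM was 0.48 for Inpp5d, at percentile 98.0 of 2729 genes of like level. It was 0.25 for Inpp4b (percentile 77.8 of 2204 genes), 0.22 for Inppl1 (percentile 84.6 of 2803 genes) and 0.07 for Inpp4a (percentile 25.3 of 1657 genes). Among control mice, by percentile, the widely varying members were thus Inpp5d and Plekha2 and the steady ones Plekha1 and Inpp4a. Much of those wide SDs came from 1 library each. For Inpp5d it was replicate 1, at 17.0 CPM against 26.8 to 35.5 CPM in the other hpCTL libraries. For Plekha2 it was replicate 3, at 50.9 CPM against 33.4 to 39.2 CPM. In SD of log2 CPM Plekha2 and Inpp4b were alike.

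For all 6 genes the CPM values of the groups overlapped, against 261 of the 17252 tested genes (1.51%) whose groups did not overlap. Nothing is read from this count for Plekha2, since the contrast chose it.

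Levels of different genes were compared per length of their exons, as CPM divided by the exon length in kilobases (FPKM). The mean over the 8 libraries was 9.28 FPKM for Inpp4a, 7.75 for Plekha1, 5.72 for Plekha2, 5.43 for Inppl1, 3.35 for Inpp5d and 0.811 for Inpp4b. Inpp4a exceeded Plekha1 in 7 of 8 libraries, and Plekha1 exceeded Plekha2 in 7 of 8, with hp708 replicate 4 as the exception. By exon length Plekha2 and Inppl1 could not be ordered, as each was the higher one in 4 of 8 libraries. Inppl1 exceeded Inpp5d, and Inpp5d exceeded Inpp4b, in 8 of 8. With the length of the longest coding transcript the order of the means was the same, but the counts of libraries moved. Inpp4a then exceeded Plekha1 in 6 of 8 libraries, Plekha2 exceeded Inppl1 in 7 of 8 and Inppl1 exceeded Inpp5d in 6 of 8, so these neighbours were separated or not according to the length used.

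The genes of each kind were compared by the ratio of their levels per exon length. Among the 4-phosphatases the FPKM ratio of Inpp4b to Inpp4a was 0.0697 to 0.111 across the libraries. Among the 5-phosphatases the FPKM ratio of Inpp5d to Inppl1 was 0.462 to 0.793, but by the longest coding transcript Inppl1 was the higher in only 6 of 8 libraries. For the adaptors the FPKM ratio of Plekha2 to Plekha1 was 0.618, 0.498, 0.765 and 0.576 in hpCTL replicates 1 to 4 and 0.523, 0.656, 0.767 and 1.43 in those of hp708. It passed 1 in hp708 replicate 4 alone.

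The other genes of the pathway were read from the same fit over all genes. Of 42 listed genes 41 were tested, the exception being the class II kinase gene Pik3c2g. edgeR's quasi-likelihood test with Benjamini-Hochberg adjustment called 0 of 41 at a false discovery rate (FDR) below 0.05, against 1 of 17252 genes overall (0.0058%). The likelihood ratio test, DESeq2 and every other alternative run also called 0 pathway genes, among 42 tested when no filter on low counts was applied. At an unadjusted p-value below 0.05 there were 3 of 41, against 7.7% of all tested genes. That count was 0 without surrogate variables, 5 with animal 1602 counted as hpCTL and 6 without the library labelled hp708 replicate 1. Over all genes the same fits gave 312 of 17252, 2099 of 17567 and 2119 of 17425. In the fit as reported the log2 fold changes ran from -0.38 to 0.18 with a median of 0.03. Of the 41, 29 lay above 0 and 12 below, against 8076 above and 9176 below over all tested genes. None of the 41 had groups that did not overlap, against 1.51% of all tested genes, and nothing is read from this count.

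Among the 9 class I PI3-kinase genes, which supply PI(3,4,5)P3, 4 had a log2 fold change above 0 and 5 below, with a median of -0.04. Pik3cd, the catalytic subunit known from leukocytes, had the lowest p-value of the pathway. Its level was 38.3, 45.1, 48.2 and 49.5 CPM in hpCTL and 38.8, 39.2, 37.55 and 45.35 CPM in hp708, and its log2 fold change was -0.22 (SE 0.06, edgeR quasi-likelihood FDR 0.502). The groups overlapped, since hpCTL replicate 1 was as low as hp708 replicates 1 to 3, and hp708 replicate 4 lay above hpCTL replicate 2. Its lowest libraries were hp708 replicate 3, hpCTL replicate 1 and the one labelled hp708 replicate 1, with hp708 replicate 2 next. The first 3 of these were also lowest in the immune lists given below, and the part of immune cells was not tested. For Pik3ca, the catalytic subunit found in most tissues, the log2 fold change was -0.10 (SE 0.05, edgeR quasi-likelihood FDR 0.712). Pik3r2, a regulatory subunit, was the most abundant class I gene at a mean of 22.04 FPKM.

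Both tested class II PI3-kinase genes, which make PI(3,4)P2 without PI(3,4,5)P3, had fold changes close to 0. The log2 fold change was 0.01 for Pik3c2a and 0.05 for Pik3c2b, and their mean levels were 2.61 and 2.60 FPKM. Of the 9 other 3- and 5-phosphatase genes, 8 had a log2 fold change above 0 and 1 below, with a median of 0.04. Synj1, the synaptic vesicle 5-phosphatase, was the most abundant gene of the pathway at a mean of 58.1 FPKM. Its log2 fold change was 0.10 (SE 0.04, edgeR quasi-likelihood FDR 0.67). Ocrl, a 5-phosphatase gene of endosomal membranes, had a log2 fold change of 0.11 (SE 0.06, edgeR quasi-likelihood FDR 0.739).

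Among the 10 effector genes 8 had a log2 fold change above 0 and 2 below, with a median of 0.02. Pdpk1, the kinase that activates AKT at the membrane, had a level of 118.7, 132.3, 138.4 and 137.4 CPM in hpCTL and 140.2, 120.9, 159.0 and 157.9 CPM in hp708. Its log2 fold change was 0.13 (SE 0.05, edgeR quasi-likelihood FDR 0.594). Dapp1, a PH domain adaptor known from B cells, had a log2 fold change of -0.20 (SE 0.11, edgeR quasi-likelihood FDR 0.712).

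The tails of TAPP1 and TAPP2 bind PDZ domain proteins, of which 5 genes were listed, 4 with a log2 fold change above 0 and 1 below (median 0.05). For the syntrophin gene Sntb2 the log2 fold change was 0.18 (SE 0.08, edgeR quasi-likelihood FDR 0.667), and for Sntb1 it was -0.21 (SE 0.14, edgeR quasi-likelihood FDR 0.767). The 6 other PLEKHA genes were divided evenly, with 3 above 0 and 3 below (median -0.02). Plekha4 had a log2 fold change of -0.38 (SE 0.16, edgeR quasi-likelihood FDR 0.648) at a mean of only 0.426 FPKM. Plekha5 stood at 0.06 (SE 0.05), and Plekha3 was the most abundant at a mean of 12.0 FPKM. Of the 41 tested pathway genes 14 (34.1%) had a miR-708-5p seed site in their 3'UTR, against 26.5% of all tested genes that have an annotated 3'UTR.

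**Figure D3:**
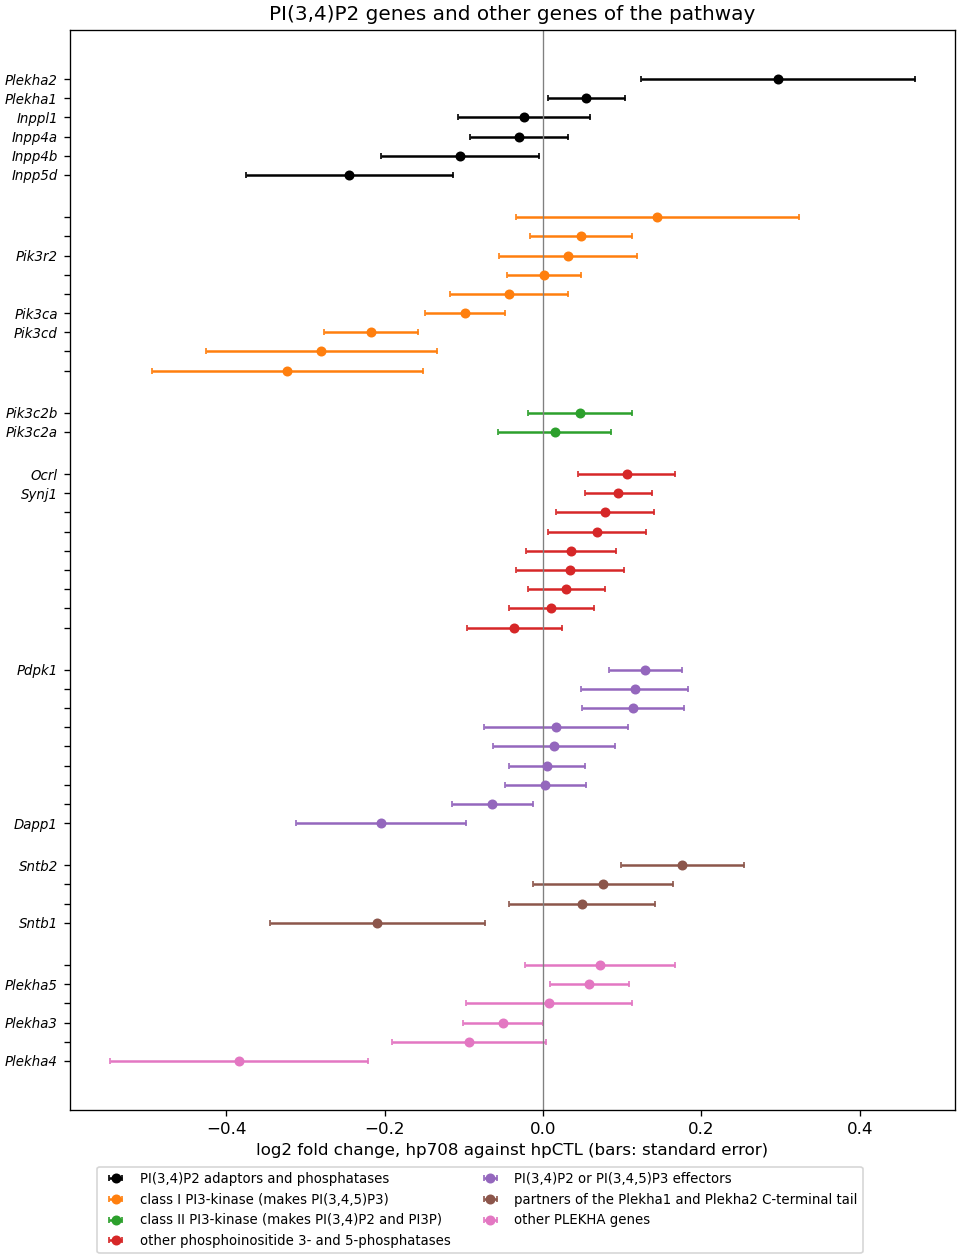
Log2 fold change of hp708 against hpCTL (x axis) for the 6 PI(3,4)P2 adaptor and phosphatase genes (black) and 39 other tested genes of the pathway (coloured by role), of which the 14 described in the text are labelled. Points are estimates from the fit with 3 surrogate variables and bars are standard errors. The pathway genes lie between -0.38 and 0.18, and Plekha2, at 0.30, lies above them with a standard error of 0.17.

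Since several of these genes are known from particular cells, the level of each was set beside lists of cell type and region markers in the same libraries. In whole tissue, fewer cells of a type and less RNA per cell cannot be told apart. The defining markers of neurons, astrocytes, oligodendrocytes and microglia were detected in all 8 libraries. With 4 libraries against 4, the smallest p of an exact permutation test (two-sided) is 0.0286, so that a single list could not pass an adjustment over the 19 lists. The differences of the lists between groups, from -0.64 to 0.65 in mean log2 CPM, are therefore given as values with no verdict.

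The mean log2 CPM of the 6 subiculum markers, which include Tshz2, a gene named in the study's own comparison of these mice, was 4.26, 4.79, 4.72 and 4.87 in hpCTL. In hp708 it was 4.74, 4.04, 3.80 and 3.52. Their summed level ranged from 194.6 to 310.4 CPM in hpCTL and from 178.6 to 281.2 CPM in hp708, and no marker was at 0 in any library. The difference between the group means was -0.64 and is given without a test, since the lists were chosen with results of these mice known. The library with the most Plekha2, hp708 replicate 4, had the lowest mean log2 CPM of the list, though not the lowest summed level. Its Fn1, at 90.5 CPM, exceeded that of hpCTL replicate 1 (66.4 CPM) and hp708 replicates 2 and 3 (67.4 and 75.8 CPM). The library with the least Plekha2, labelled hp708 replicate 1, had more subiculum signal than the other hp708 libraries.

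Across the 8 libraries, Pearson's r between the log2 CPM of Plekha2 and this list was -0.82 and Spearman's rho was -0.83. After centring each group r was -0.78, and without the 2 libraries farthest from the median of the list it was -0.48. The group means of the subiculum list were ordered opposite to those of Plekha2, and its part in the Plekha2 difference was not tested. By single marker, r with Plekha2 was -0.16 for Fn1 and -0.88 to -0.73 for the other markers. The r of -0.82 was the largest in size for Plekha2 over the 19 lists. None of the 114 relations computed between the 6 genes and the 19 lists passed a correction for their number. These r values are a description and carry no p.

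The level of Inpp5d was set beside the immune lists. The mean log2 CPM of the 12 microglia markers was 5.83, 6.06, 6.23 and 6.22 in hpCTL replicates 1 to 4 and 5.58, 6.18, 5.73 and 6.28 in those of hp708. Its summed level was 941.2 to 1294 CPM in hpCTL and 770.7 to 1362 CPM in hp708, with no marker at 0. The libraries hpCTL replicate 1, hp708 replicate 3 and the one labelled hp708 replicate 1 were the lowest of the 8, between 5.58 and 5.83, with the other 5 between 6.06 and 6.28. Single markers did not all follow this split. Cx3cr1, the fractalkine receptor, was 58.6 to 67.1 CPM in those 3 libraries and 75.0 to 93.4 CPM in the others, whereas P2ry12, a purinergic receptor, was 34.7 to 39.4 CPM in the 3 and 36.5 to 38.6 CPM in the others, and Siglech was lowest in hp708 replicates 2 and 4, at 15.4 and 15.8 CPM.

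The same 3 libraries were the lowest in 4 further immune lists. Their mean log2 CPM was 0.22 to 0.76 for T cells against 1.40 to 2.36 in the other 5, and 2.65 to 3.19 for B and plasma cells against 3.52 to 4.03. For antigen presentation it was 6.63 to 6.94 against 7.96 to 8.67, and for the interferon response 3.52 to 3.85 against 4.72 to 5.00. The 5 immune lists thus had the same 3 lowest libraries.

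In hpCTL replicate 1, the library labelled hp708 replicate 1 and hp708 replicate 3, Inpp5d was 17.0, 22.1 and 20.6 CPM and Inpp4b 9.996, 11.8 and 11 CPM. The other 5 libraries held 24.6 to 37.7 CPM of Inpp5d and 13.3 to 15.2 CPM of Inpp4b. No correlation over all libraries is given between these genes and the 5 immune lists, since the 3 and the 5 libraries stand apart and neither set is large enough to test. The part of immune cells in the level of either gene was not tested.

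**Figure D4:**
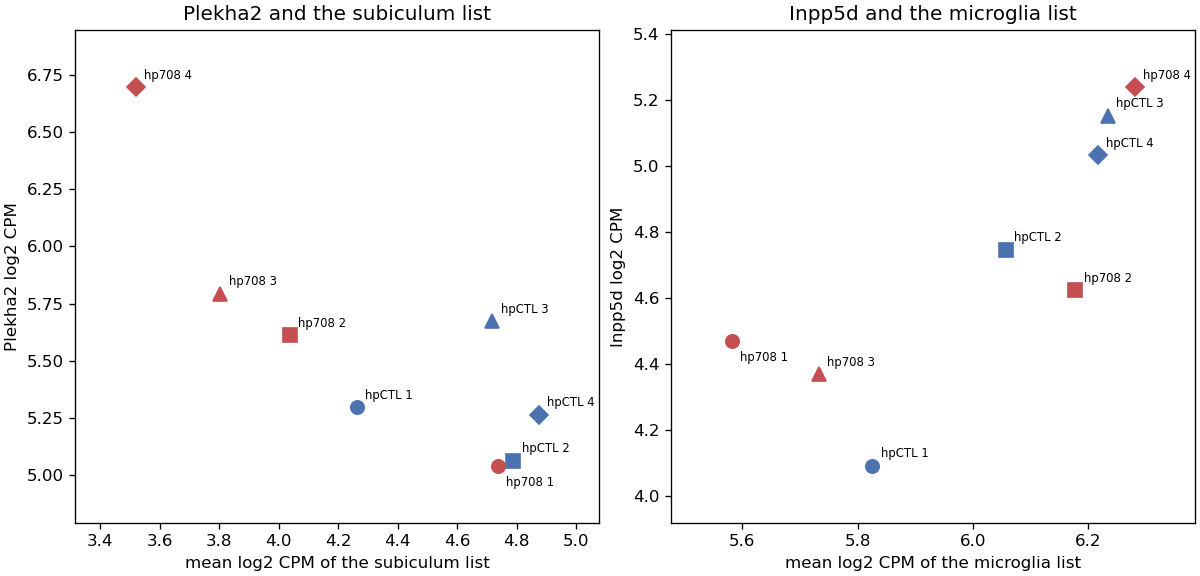
Left, log2 CPM of Plekha2 against the mean log2 CPM of the subiculum list. Right, log2 CPM of Inpp5d against the mean log2 CPM of the microglia list. Each point is 1 of 8 libraries, blue for hpCTL and red for hp708, with Pearson's r of -0.82 on the left. On the right, 3 libraries lie between 5.58 and 5.83 and the other 5 between 6.06 and 6.28, and hp708 replicate 4 sits at the top of both panels.

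Inppl1 and Inpp4a are given with the list of highest r in size for each, and neither relation passed the correction over the 114 relations computed between the 6 genes and the 19 lists. Inppl1 ran with the endothelium list (r = 0.90, rho = 0.91, exact permutation p = 0.000694 and 0.00456, adjusted 0.0792 and 0.275), and r was 0.74 without the 2 libraries farthest from the median of the list. Inpp4a ran opposite to the oligodendrocyte list (r = -0.85, rho = -0.74, exact permutation p = 0.00484 and 0.0458, adjusted 0.153 and 0.505), and r was -0.82 without the 2 farthest libraries. The part of these cell types in the group differences was not tested.

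Among the 6 genes, the 3 highest r in log2 CPM over the 8 libraries were those between Inpp4b, Inppl1 and Inpp5d. They were 0.89 for Inpp4b and Inpp5d, 0.82 for Inppl1 and Inpp5d and 0.80 for Inpp4b and Inppl1. Without the 2 farthest libraries these were 0.71, 0.47 and 0.01. Over the 8 libraries the 4-phosphatase gene Inpp4a did not share the pattern, with r of -0.22 to Inpp4b, 0.02 to Inppl1 and -0.11 to Inpp5d. Without the 2 libraries farthest from its median these were 0.55, 0.51 and 0.47, so this contrast depended on those libraries. For Plekha1 and Plekha2 r was 0.68, and 0.70 without the 2 farthest libraries. These values are descriptions, since all genes of a library share its depth and its mixture of cells, and Inpp4b and Inpp5d are both lowest in the 3 libraries with the least immune signal.

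The genes whose pattern was most like that of Plekha2 were sought among 12506 tested genes with a mean of at least 5 CPM, by Pearson's r of log2 CPM over the 8 libraries. The 5 with the highest r were Cd109 (0.973), a cell surface protein, Acvr1 (0.973), a BMP and activin receptor, Cap1 (0.965), an actin regulator, Wipf3 (0.964), a WASP-interacting protein, and Zfp536 (0.962), a zinc finger protein. The 5 with the lowest r were Ccdc136 (-0.976), Psrc1 (-0.954), Usp27x (-0.953), Wdr6 (-0.949) and Slc16a11 (-0.947). All 10 reached their own extreme in hp708 replicate 4. Without that library and the one labelled hp708 replicate 1, r was 0.82 to 0.94 for the first 5 and -0.90 to -0.75 for the others.

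Wipf3 was the most abundant of the 10, and its level was 551.5, 500.4, 540.9 and 498.7 CPM in hpCTL and 480.1, 623.3, 672.3 and 963.5 CPM in hp708. It shared with Plekha2 the lowest level in the library labelled hp708 replicate 1 and the highest in hp708 replicate 4. Wdr6 ran the other way, at 162.0, 191.5, 155.1 and 157.6 CPM in hpCTL and 212.7, 141.3, 154.4 and 91.4 CPM in hp708. By the same measure Plekha1 stood at rank 635 of 12506 (r = 0.679) and Inpp4a at rank 11114 (r = -0.568). Plekha1, the relative of Plekha2, was therefore not among the 5 genes most like it, but it was the most alike of the other members, with Inpp5d next (r = 0.486). These genes were chosen for their r, which is given without a p.

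**Figure D5:**
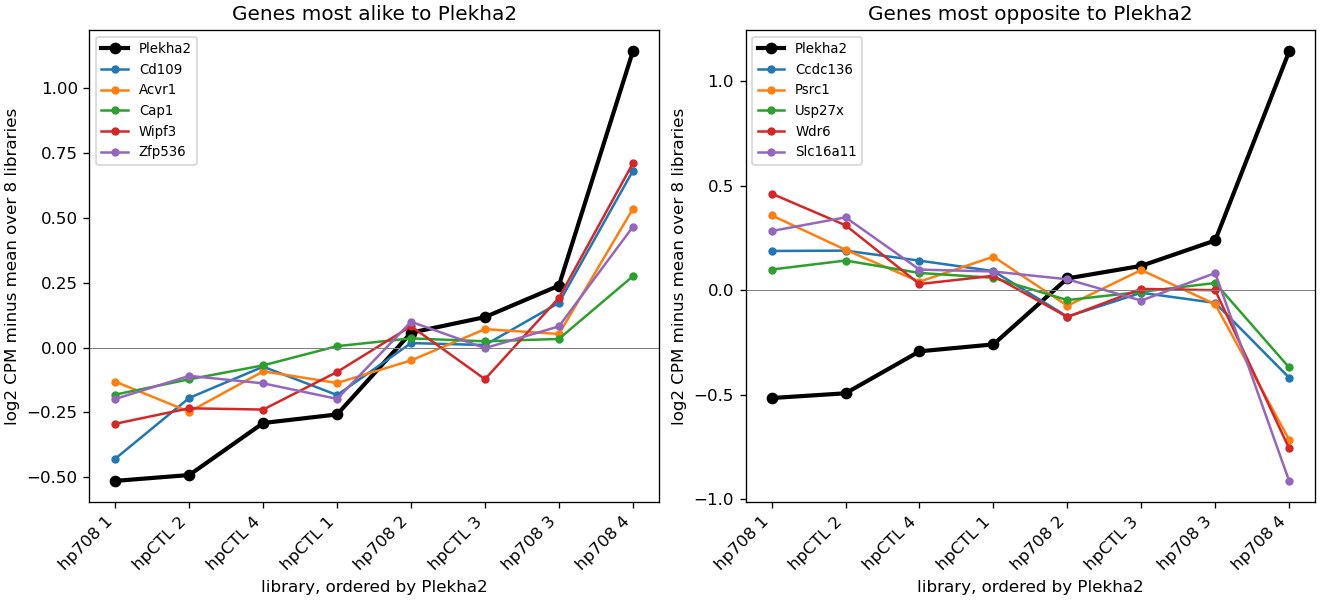
Log2 CPM minus the gene's mean over the 8 libraries (y axis), with the libraries ordered by Plekha2 (x axis), for Plekha2 (black) with the 5 genes of highest Pearson's r on the left and the 5 of lowest r on the right. All 10 genes have their highest or lowest value in hp708 replicate 4, where Plekha2 is at its maximum of 103.6 CPM.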

How the data were processed

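PolyA-RNA libraries (TruSeq mRNA) of 8 hippocampi, 4 hpCTL and 4 hp708, grouped by their labels, were analysed. The authors mapped reads to GRCm39 with STAR 2.7.8a, counted them per gene with featureCounts 1.6.4 and GENCODE M26, and deposited the raw counts, not normalized. Strand and multimapping settings are not given in the sources used here. Of the 40659 genes, 39641 were named from GENCODE M39.

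From the deposited counts, filterByExpr kept 17252 genes. These were tested with edgeR 4.0.16 in R 4.3.3 (quasi-likelihood as in edgeR 3, TMM, 3 surrogate variables from sva 3.50.0, Benjamini-Hochberg). The surrogate variables were estimated from the counts without scaling to library size. The methods of the study name the likelihood ratio test and a figure legend the quasi-likelihood model, so the former was an alternative, as was DESeq2 1.42.0. The other alternatives changed the surrogate variables, the normalization, the filter, a replicate block, a covariate, the group given to animal 1602 and which libraries entered. Log2 CPM used a prior count of 2, and a standard error is the log2 fold change divided by the root of the F statistic. FPKM used the union of exons. Functions were tested on simulated counts.

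Genes named are the 6 genes, up to 2 genes of lowest p and the most abundant gene per pathway role, and the 5 most and 5 least like Plekha2. Values of 2 pathway genes that this rule names are not reported here, though counts over the pathway include them. These genes and all lists were chosen with earlier results of these data known. Labels give 1 library per animal. Libraries correlated at r = 0.971 to 0.987 within groups in log2 CPM and differed beyond sampling noise, with a chi-square of at least 10.0 per degree of freedom, so none was a copy of another.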

Additional observations from a re-analysis of the deposited data

Results flagged for a closer look

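The levels of the 6 genes, the means of the 19 marker lists and the total counts were examined in each group, 52 sets of 4 libraries in all, and 2 sets held a library whose gap to its nearest neighbour exceeded Dixon's critical value for 4 samples. Chance gives about 1 in 20 such sets, or 2.6 of 52. Plekha1 was 96.71 CPM in hpCTL replicate 1, against 101.36 to 102.15 CPM in the other 3 hpCTL libraries. The endothelium list had a mean of 4.6809 log2 CPM in hp708 replicate 3, against 4.8259 to 4.8425 elsewhere in hp708. Inppl1 was lowest of hp708 in the same library, at 30.1 CPM. The 103.6 CPM of Plekha2 in hp708 replicate 4 did not pass that value, with a ratio of 0.6817.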

How the results depend on the processing

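No cause was tested for the changes given here. With edgeR's quasi-likelihood test the count of genes at an FDR below 0.05, 1 as reported, was 0 with no, 1 or 2 surrogate variables (312, 593 and 708 genes at an unadjusted p below 0.05), when a count of at least 10 was required in each library (907), when the subiculum list was the covariate (508) and, in a setting added after seeing the data, with surrogate variables from TMM-scaled CPM (2098). It was 127 with the likelihood ratio test, 96 with DESeq2 and 3 surrogate variables, 2 with DESeq2 without them, 12 without a filter and 29 with animal 1602 counted as hpCTL. Leaving out 1 library gave 0 to 56, the latter without the library labelled hp708 replicate 1. The count of pathway genes was 0 in all 29 alternatives and fits that left out 1 library.

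The log2 fold change of Plekha2 lay between -0.20 and 0.65 over the 13 alternatives and between 0.057 and 0.84 without 1 library, that of Inpp5d between -0.24 and -0.05 and between -0.44 and 0.04, and that of Plekha1 between 0.02 and 0.16 and between 0.02 and 0.15. Those of Inpp4a, Inpp4b and Inppl1 took both signs. The replicate block in place of surrogate variables left the gene count at 1 and gave 0.46 for Plekha2 (standard error 0.25) and 0 pathway genes. The deviations of log2 CPM from the group mean correlated between -0.041 and 0.018 in same-numbered libraries, so the numbers did not pair them, and none correlated best with its own number. With 4 mice a group and 3 surrogate variables, few degrees of freedom remained, and fewer when 1 library was left out. The standard errors of such fits are therefore uncertain. Inpp4b had the fewest counts of the 6 genes, 258 to 370 per library.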

Other observations

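A list of 17 genes that neuronal activity is known to induce was read in the same libraries. It was written after the values had been seen, so the values are given without a test. Of the 17 genes 10 were highest in hp708 replicate 4, the library with the most Plekha2, as were 2620 of all 17252 tested genes (15.2%). Since the list was chosen with these values in view, nothing is read from the comparison of these shares. Bdnf, a neurotrophin, was 73.0 CPM there and 28.8 to 45.9 CPM in the other 7 libraries. Inhba, which encodes a subunit of activin, was 27.8 CPM there and 5.95 to 8.00 CPM in the others. Nptx2, a secreted synaptic pentraxin, was 59.8 CPM there against 16.0 to 24.9 CPM, and Ptgs2, a prostaglandin synthase, 51.3 CPM against 20.2 to 37.4 CPM.

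The immediate early genes of the list were divided. Fosb was 16.6 CPM in hp708 replicate 4 against 8.15 to 12.1 CPM in the others, and Egr3 was 125.7 CPM against 86.0 to 111.3 CPM. Fos was 9.996 CPM and Npas4 8.67 CPM there, both the lowest of the 8 libraries, and Arc was 128.0 CPM, with 116.4 to 276.1 CPM in the others. Junb was 40.6 CPM there against 39.3 to 74.4 CPM, Nr4a1 57.25 against 55.5 to 109.5 CPM and Egr1 105.7 against 103.4 to 166.3 CPM. More of these genes were thus low than high in that library. Pearson's r with Plekha2 was 0.88 for Fosb, 0.91 for Egr3, 0.93 for Pcdh8 and 0.94 for Ptgs2. It was -0.64 for Fos, -0.79 for Npas4, -0.54 for Nr4a1, -0.50 for Junb, -0.48 for Arc and -0.23 for Egr1. It was above 0 for 11 of the 17 genes. The cause of the difference between these genes was not tested.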
